A study of Mus musculus with 10 samples.

Results

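Wnt ligands, Frizzled receptors and the co-receptors Lrp5 and Lrp6 were followed in mouse small intestine after loss of the R-spondin receptors Lgr4 and Lgr5 and after removal of R-spondin itself. The 9 genes were chosen by name as the Wnt ligands and receptors of the crypt and organoid arrays: the ligands Wnt3, Wnt6 and Wnt9b, the receptors Fzd1, Fzd5, Fzd6 and Fzd7, and the co-receptors Lrp5 and Lrp6. All probes carrying one of these gene names were taken, 14 of 41174 distinct probes on the array, where 28095 gene names occur. Expression was read on 10 Agilent 2-colour mouse arrays.

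The crypt arrays carried RNA from isolated small intestinal crypts of AhCre Lgr4fl/fl Lgr5fl/fl mice, taken on day 1 after deletion, together with RNA from wt control crypts. There were 2 biological replicates, each on a dye-swapped pair of arrays. AhCre is a recombinase under a promoter that foreign compounds switch on, so deletion in these mice required such an inducer. Whether the wt mice carried the Cre gene or received the inducer is not given in the sources used here, nor are the ages of the mice. Deleted organoids came from VillinCre Lgr4fl/fl Lgr5fl/fl mice (2 cultures, day 1 after deletion). The organoids they were set against came from VillinCre wt mice and had tamoxifen for 1 day (2 cultures). Villin drives the Cre in epithelium, the only tissue an organoid has. Organoid medium held EGF, Noggin and R-spondin. For withdrawal, 1 culture was kept without R-spondin for 1 day after splitting, and 1 culture was kept with it. Organoid RNA was labelled with Cy5, with mouse reference RNA (Stratagene) in Cy3 on the same array. The labels call the crypt pairs and the second culture of each organoid group biological replicates without saying that they came from separate mice, so p-values measure only the spread between these samples, which may be technical.

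Wnt ligands are secreted lipid-modified proteins that bind a Frizzled and Lrp5 or Lrp6 together at the cell surface, which stabilises β-catenin and switches on TCF target genes. In the small intestinal crypt this signal maintains the stem cells, and Paneth cells are an epithelial source of Wnt3. The membrane ligases Rnf43 and Znrf3 remove Frizzleds from the surface. R-spondin, bound to Lgr4 or Lgr5, restrains these ligases, and so acts on the receptors measured here at the level of protein, which arrays do not read.

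Fzd5 and Fzd7 were among the members with 2 probes whose values differed from each other, as was Lrp6, described below. For Fzd5 and Fzd7 the probe that showed the smaller difference is printed. Both printed probes, of 60 bases each, read without a stop codon in 2 of their 3 frames. The files place Fzd5 probe 1 at chr1:64781972-64782030 on the minus strand, a span shorter than the probe itself, and Fzd7 probe 1 at chr1:59541367-59541426 on the plus strand (mm9).
Fzd5 probe 1: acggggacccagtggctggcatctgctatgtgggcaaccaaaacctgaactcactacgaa
Fzd7 probe 1: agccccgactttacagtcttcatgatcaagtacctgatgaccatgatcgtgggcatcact

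Wnt3 and Fzd7 were the members lower by more than 1 log2 unit without R-spondin, so the 250 bases before their annotated starts are also shown (RefSeq, GRCm38.p6). They lie at chr11:103773925-103774174 for Wnt3 and chr1:59481897-59482146 for Fzd7, both on the plus strand. Capitals mark a match to 1 of 4 TCF/LEF words, which are CTTTG followed by AA, AT, TA or TT, searched on both strands. The words have equal length and different endings, so only 1 can match at a given start on a strand.
Wnt3 promoter: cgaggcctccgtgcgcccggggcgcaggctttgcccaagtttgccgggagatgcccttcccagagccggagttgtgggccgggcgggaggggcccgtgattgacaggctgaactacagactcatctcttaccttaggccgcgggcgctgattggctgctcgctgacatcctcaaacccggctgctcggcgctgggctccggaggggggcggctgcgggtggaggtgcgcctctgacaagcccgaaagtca
Fzd7 promoter: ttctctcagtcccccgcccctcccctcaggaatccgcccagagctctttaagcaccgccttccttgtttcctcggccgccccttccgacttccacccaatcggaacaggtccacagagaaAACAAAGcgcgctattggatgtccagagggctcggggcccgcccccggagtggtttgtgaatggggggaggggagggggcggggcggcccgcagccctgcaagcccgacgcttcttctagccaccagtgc
Of the members, 6 of 9 had a promoter entry (Wnt3, Wnt6, Wnt9b, Fzd1, Fzd5 and Fzd7), and 1 of these, Fzd7, held a match, the word ending in TT read on the minus strand, beginning 130 bases before the start. Among 32851 promoter windows of this length, 14.8% held at least 1 of the words. A match is a run of letters, not a shown binding site.

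The deletion was visible in the targeted genes. In crypts Lgr4 was lower by -1.56 (log2, replicates -1.51 and -1.61; limma adjusted p 0.0881) and Lgr5 by -1.68 (-1.89 and -1.48; adjusted p 0.0873). Lgr4 in organoids had Cy5 signals of 2070.5 and 3145 in wt and 161 and 285 in deleted cultures, and Lgr5 was at least 12.3-fold lower, from 1 wt culture whose spot was usable to deleted cultures not well above background. Per array 40.2% to 63.1% of gene probe spots were well above background in the Cy5 channel. In Cy3, the reference of the 4 arrays with deleted and wt organoids reached only 3.66% to 4.26%, so that comparison uses Cy5 alone. The dye-swapped arrays of crypt replicate 1 correlated with r = 0.35 over 17188 probes and those of replicate 2 with r = 0.92, so the crypt values of tested member probes are given by array. All 8 epithelial markers, among them Epcam, Cdh1 and Vil1, passed the filter on dim probes in crypts and in the organoid deletion comparison. Summed marker signals below are over the markers with a usable spot on every array compared. Of 9 immune cell markers measured in crypts, leaving out Lyz2, which Paneth cells also make, 8 were higher in deleted crypts at an unadjusted p under 0.05, with a median of 1.72 over the list. The summed signal of 7 of them ran from 4267 to 5727 in wt and from 14422 to 17305 in deleted RNA. In the organoid deletion comparison 0 of the immune markers that passed the filter were lower or higher at that threshold. Of 6 stroma markers in crypts, 3 were lower (Col1a2, Col3a1 and Dcn) and 1 was higher (Thy1, by 1.49) at that threshold. The summed signals of all 6, Thy1 among them, were 6685 to 7632 in wt and 6221 to 9313 in deleted RNA. The part of these cells in the crypt values below was not tested.

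Wnt3 was lower in organoids after either perturbation, and not in both crypt replicates. Its 2 probes, at chr11:103677409-103677468 and chr11:103679038-103679097 (mm9, plus strand), gave like values. In organoids the signal of probe 1 was 237 and 364 in the wt cultures and 136 and 159 in the deleted cultures. That of probe 2 was 203 and 262 against 96.9 and 115. Both deleted cultures lay below both wt cultures by either probe, and all 4 were well above background by either. The log2 change was -0.996 by probe 1 (SE 0.28, 1.99-fold) and -1.13 by probe 2 (SE 0.24, 2.18-fold). Neither passed limma's test over all genes or probes (adjusted p 0.454 and 0.331). Each slide held 1 wt and 1 deleted culture, and within the slides the changes were -0.80 and -1.19 for probe 1 and -1.07 and -1.18 for probe 2. With slide as a block, Wnt3 passed by probe 1 (limma adjusted p 0.0325), in a fit that called 3.14% of 12492 genes. Over probes, the blocked fit gave an adjusted p of 0.00713 for probe 2 and called 4.07% of 17810 probes. By ratio to the poorly measured reference, the change was -0.30 for probe 1 and -1.21 for probe 2. In the deleted cultures a lower share of cells that make Wnt3 and less Wnt3 RNA per cell cannot be told apart, which holds for every value here.

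Withdrawal of R-spondin gave a larger difference in Wnt3 than any other member showed. Wnt3 probe 1 had a Cy5 signal of 1405 with R-spondin and 251 without. Probe 2 had 775 with and 130.3 without. As a log2 ratio to the reference RNA, probe 1 went from 3.54 to 1.33 and probe 2 from 3.47 to 0.91, differences of -2.21 (4.62-fold) and -2.56 (5.88-fold). The reference signal was not well above background on the array without R-spondin for probe 1, and on both arrays for probe 2. By Cy5 alone the differences were -2.48 and -2.57. With 1 culture a group there is no replicate check or test.

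In crypts the replicates disagreed on Wnt3. Replicate 1 gave -0.46 and -0.48 on its arrays, and replicate 2 gave 0.09 and 0.01. Probe 2 gave -0.17 and -0.23, then 0.27 on the single usable array of replicate 2. The mean of probe 1 was -0.21 (SE 0.24, n = 2 replicates, limma adjusted p 0.726). Without replicate 1 the value was 0.05 and without replicate 2 it was -0.47. The difference between the crypt and the organoid effect was 0.79 (SE 0.32) by probe 1 and did not pass (limma adjusted p 0.447).

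Paneth cell markers were measured beside Wnt3. In crypts, 9 of 9 measured were below 0 and 6 were lower at an unadjusted p under 0.05, and the summed signals of 5 markers, 465257 to 735515 in wt and 168003 to 511643 in deleted RNA, overlapped. In deleted organoids 10 of 10 were below 0 and 1, Cd24a, was lower at that threshold. The summed signal of 9, without Defa20, whose spot was marked in 1 deleted culture, was 163431 and 474525 in wt and 131058 and 261021 in deleted cultures, so the groups overlapped. Without R-spondin 7 of 9 were below 0 by ratio to the reference, and 2, Lyz1 and Cd24a, were lower by more than 1. The summed Cy5 signal of the 9 was 427112 without against 779998 with R-spondin. The part of Paneth cells in the Wnt3 values was not tested.

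Of the other ligands, Wnt6 had a probe past 1 without R-spondin. Wnt6, which is 1 of the epithelial Wnts, was higher without R-spondin by 0.58 by probe 1 (Cy5 signal 301 with, 455 without) and by 1.11 by probe 2 (228 and 488). In crypts Wnt6 probe 1 gave 0.64 and -0.16 on the first replicate's arrays and 0.27 and 0.55 on the second's. The mean was 0.33 (SE 0.22, limma adjusted p 0.539). Its signal in organoids was 142 and 137 in wt and 161 and 133 in deleted cultures, and the groups overlapped (0.07, SE 0.22, limma adjusted p 0.993). Wnt9b was too dim to test in either deletion comparison, with array values of -0.16, 0.01, 0.07 and 0.03 in crypts and Cy5 signals of 96.6 and 112 in wt against 96.9 and 93.2 in deleted organoids. Without R-spondin it was at 148 against 211 with it, a ratio difference of -0.56. Wnt6 probe 2 was likewise too dim to test in both deletion comparisons.

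**Figure D1:**
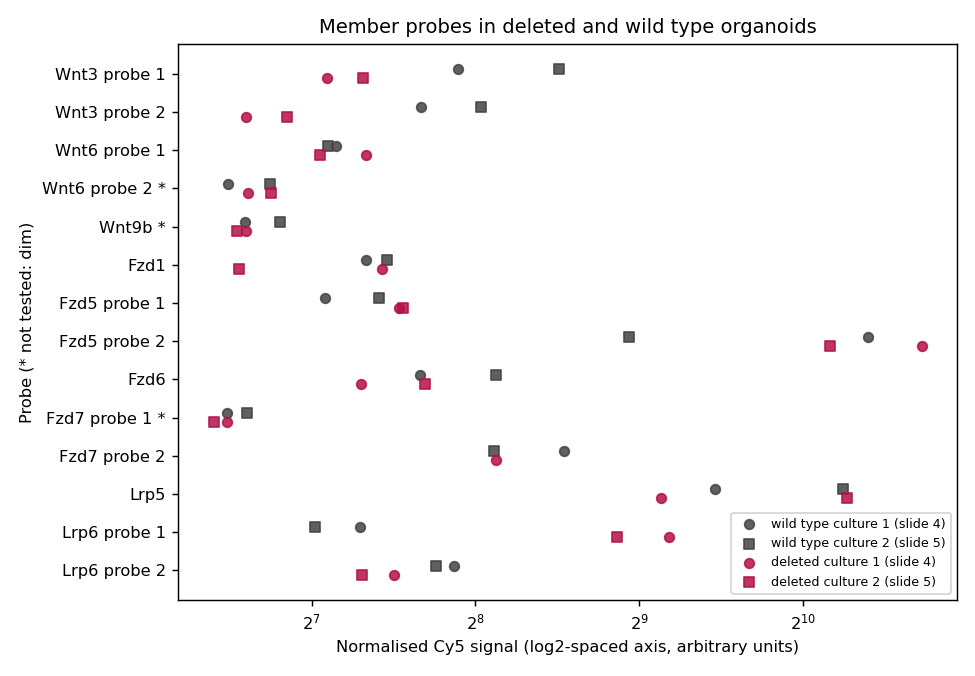
Normalised Cy5 signal of each member probe (log2-spaced horizontal axis, arbitrary units) in 2 wt and 2 deleted organoid cultures, with circles for slide 4 and squares for slide 5. By both Wnt3 probes the deleted cultures sit below the wt cultures, and by Lrp6 probe 1 they sit at 580.5 and 466 against 157 and 130.01.

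Among the Frizzleds, which bind Wnt through their cysteine-rich outer domain, Fzd7 was lower without R-spondin and Fzd5 higher. Fzd7, a receptor known to serve intestinal stem cells, had a probe 2 Cy5 signal of 622 with R-spondin and 236 without. The ratio to reference went from -0.19 to -1.75, a difference of -1.56 (2.95-fold). Fzd7 probe 1, whose sequence is printed above, was much closer between the cultures, at 115 and 103 (-0.35). It lay at a signal near background, and its reference was not well above background with R-spondin.

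In deleted crypts Fzd7 probe 2 was below 0 on 4 of 4 arrays, from -0.14 and -0.29 in replicate 1 to -0.48 and -0.71 in the other. The mean of -0.40 (SE 0.23) did not pass (limma adjusted p 0.482). It was -0.83 with processed signals and -0.87 in the series matrix, which did not pass either (limma adjusted p 0.142 and 0.121). Among all genes tested 19.2% were below 0 on every array. In organoids its signal was 372 and 277 in wt cultures and 279 in deleted culture 1, and the spot of deleted culture 2 was marked and left out. The change was -0.20 (SE 0.32, limma adjusted p 0.958), with the remaining deleted value inside the wt range, and by ratio to the reference it was -1.25. The stem cell marker list, used here without Lgr5, includes the Wnt pathway genes Axin2, Rnf43 and Znrf3, which are named again below. In crypts 13 of 14 markers measured were below 0 and 12 were lower at an unadjusted p under 0.05 by limma (median -0.87). Without R-spondin 13 of 13 were lower by more than 1 by ratio to the reference, with a summed Cy5 signal of 7222 against 73593 with it. In deleted organoids 12 of 13 were lower at an unadjusted p under 0.05, and the sums of 11 were 32370.3 and 47702 in wt against 6781 and 10127 in deleted cultures. The part of stem cells in the Fzd7 values was not tested.

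Fzd5, a receptor of the crypt epithelium that Paneth cells need to mature, had values of opposite sign in crypts and organoids by probe 2 but not by probe 1. Probe 2, at chr1:64779196-64779255 (mm9, minus strand), had a Cy5 signal of 553 with R-spondin and 1618 without, and a ratio difference of 1.18 (2.26-fold). The reference signal was not well above background with R-spondin, and by Cy5 alone the difference was 1.55. In organoids it was at 1345 and 490.2 in wt and 1693 and 1148 in deleted cultures. The groups overlapped, and within the slides the deleted culture was higher by 0.33 and 1.23. The change was 0.78 (SE 0.50, limma adjusted p 0.816; 0.126 with slide as a block). Without wt culture 2 it was 0.05 and without wt culture 1 it was 1.51.

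In crypts Fzd5 probe 2 gave -0.70 and 0.38 on the dye-swapped arrays of replicate 1, which disagreed in sign, and -1.84 and -2.09 on those of replicate 2. The mean of -1.06 (SE 0.43) had an unadjusted limma p of 0.0487 and an adjusted p of 0.363. It was the value with replicate 2 that was large: without replicate 2 the change was -0.16 and without replicate 1 it was -1.97. With the scanner software's processed signals the value was -1.03 and passed (limma adjusted p 0.0391), in a fit that called 6.39% of all genes. Probe 1 of Fzd5, also printed above, gave 0.21, 0.18, 0.04 and 0.12 on the same 4 arrays, and was too dim there to test. In organoids probe 1 stood at 136 and 170.2 in wt and 185 and 189 in deleted cultures (0.30, SE 0.22, limma adjusted p 0.913), and without R-spondin at 374 against 280.3 (0.51). The crypt minus the organoid effect of probe 2 was -1.84 (SE 0.55, limma adjusted p 0.299), and without crypt replicate 1 it was -2.75. That fit held 1 crypt value, so its spread came from the organoid arrays alone. It called 6.03% of genes, a share that leaves out the spread between crypt replicates. No test result for Fzd5 is drawn from it.

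Fzd6, best known for planar polarity, had values below 0 in each comparison, none past 1, though by ratio to the reference the organoid value was 0.051. In crypts its array values were -0.08 and -0.54, then -0.10 on the single usable array of replicate 2 (mean -0.20, SE 0.22, limma adjusted p 0.702). Its organoid signal was 202 and 279 in wt and 158 and 206 in deleted cultures. The groups overlapped narrowly, with within-slide changes of -0.36 and -0.43 (mean -0.40, SE 0.27, limma adjusted p 0.835; 0.266 with slide as a block). Without R-spondin it was at 293 against 424, a difference of -0.46.

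Fzd1 differed in sign between crypt replicates, at -0.36 and -0.51 in the first and 0.28 and 0.46 in the second (mean -0.03, SE 0.27, limma adjusted p 0.971). Its organoid signal was 161 and 176 in wt and 172 and 94.2 in deleted cultures, so that 1 deleted culture lay apart and the other lay inside the wt range (-0.40, SE 0.33, limma adjusted p 0.875). Without R-spondin Fzd1 was at 159.9 against 259 (-0.61). Its ratio to the reference RNA was -2.90 with R-spondin, so the reference held more of it than the organoid by this measure, which includes any dye bias.

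**Figure D2:**
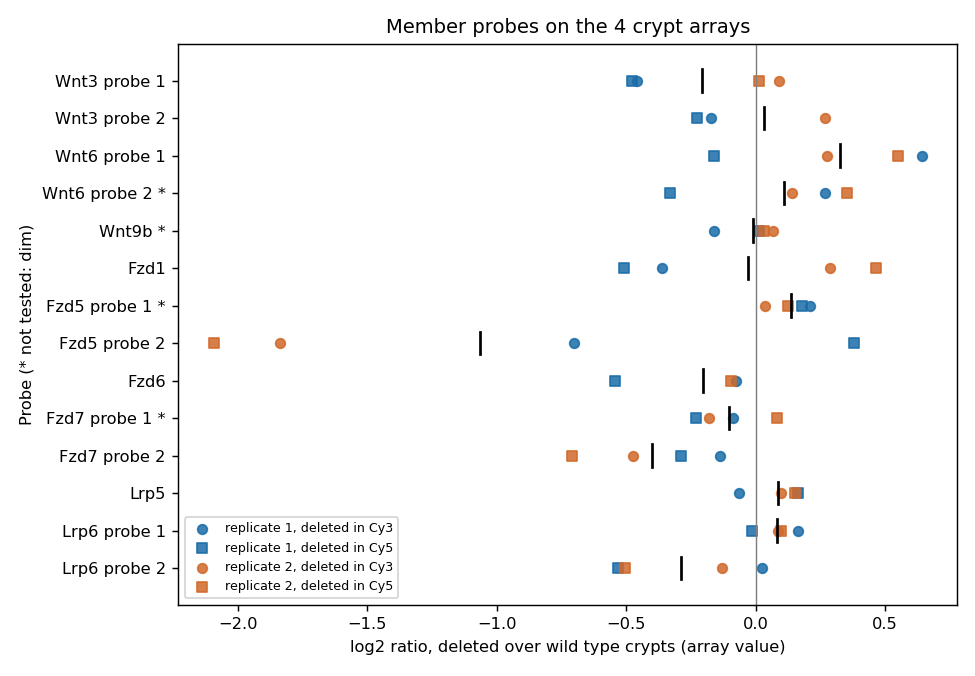
Log2 ratio of deleted over wt crypts on each of 4 arrays for every member probe, with the 2 replicates by colour, the dyes by marker shape and the mean of the replicates as a black bar. Fzd5 probe 2 reaches -2.09 in replicate 2 and 0.38 in replicate 1, and Fzd7 probe 2 is the tested probe with all 4 arrays below 0.

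Lrp6, which with Lrp5 is the co-receptor that Wnt bridges to Frizzled, was higher in deleted organoids by 1 of its probes. Probe 1, at chr6:134400356-134400415 (mm9, minus strand) and named for a full coding mRNA, had a Cy5 signal of 157 and 130.01 in wt and 580.5 and 466 in deleted cultures. Both deleted cultures stood well above both wt cultures, and all 4 were well above background. The change was 1.86 (SE 0.24, 3.64-fold) and missed the threshold (limma adjusted p 0.106). Within the slides it was 1.88 and 1.84, and with slide as a block it passed (limma adjusted p 0.00236). It also passed with the processed Cy5 signal, at 1.66 (limma adjusted p 0.0255, where 0.674% of genes were called). By ratio to the reference it was 1.27, and in the deposited log ratios 0.56.

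Lrp6 probe 2 lies 91.08 kb from probe 1, at chr6:134491492-134491551 (mm9, minus strand), and is named for an unclassified cDNA clone. It went the other way, with 234 and 217 in wt and 181 and 158 in deleted cultures (-0.41, SE 0.21, limma adjusted p 0.796), and the groups did not overlap. By ratio to the reference its change was 0.18. By Cy5 the probes of Lrp6 disagreed in sign in the same organoids. Elsewhere the difference of probe 1 was small. In crypts it gave 0.16, -0.01, 0.09 and 0.10 (mean 0.08, SE 0.23, limma adjusted p 0.903), and without R-spondin it was at 241 against 180.3 (0.55). Probe 2, the brighter there, gave 0.02, -0.53, -0.13 and -0.51 on the crypt arrays (mean -0.29, SE 0.22, limma adjusted p 0.579), and 0.15 without R-spondin. The crypt minus the organoid effect of probe 1 was -1.78 (SE 0.28). It passed in the fit over every probe (limma adjusted p 0.0469), which called 0.376% of 14890 probes. By probe 2 that difference was 0.12 (SE 0.28, adjusted p 0.897) in the fit over genes, where 0.501% of 10976 were called.

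Lrp5 had the smallest value of the members without R-spondin apart from Lrp6 probe 2, and its organoid groups overlapped. The crypt arrays gave -0.06, 0.16, 0.10 and 0.15 (mean 0.09, SE 0.22, limma adjusted p 0.883). Its organoid signals were 706 and 1212 in wt and 562 and 1234 in deleted cultures. The spread between the cultures of a group was larger than the difference between the groups (-0.15, SE 0.45, limma adjusted p 0.991). Without R-spondin the signal was 1900.4 against 2195 (-0.29).

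**Figure D3:**
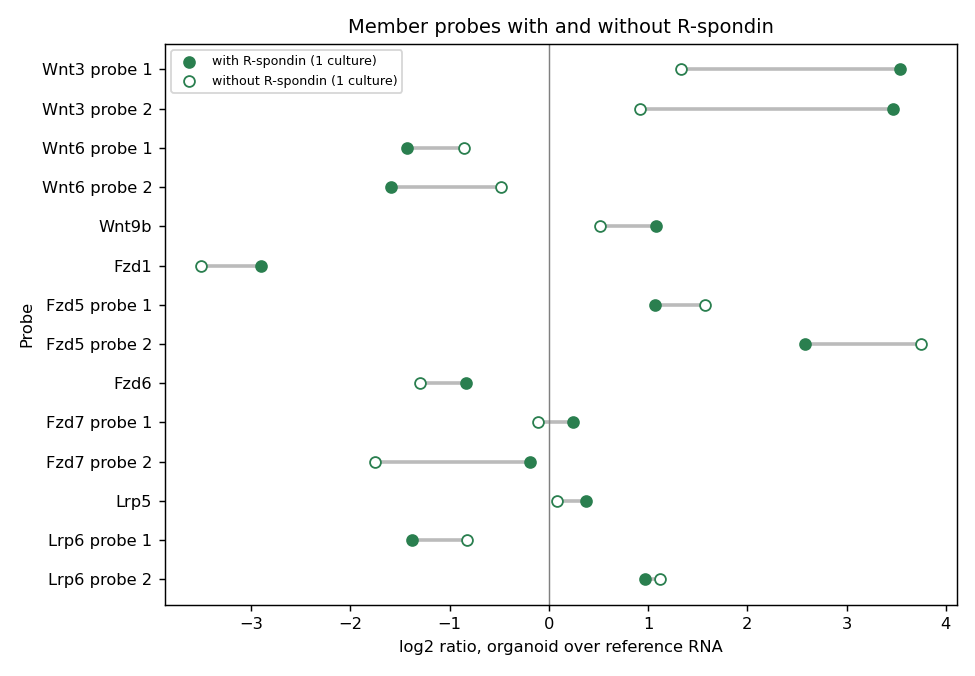
Log2 ratio of organoid over reference RNA for every member probe in 1 culture with (filled) and 1 without R-spondin (open), joined by a grey line. The Wnt3 probes shift by -2.21 and -2.56, Fzd7 probe 2 by -1.56 and Fzd5 probe 2 by 1.18.

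Counted over genes, 0 of 8 members tested passed limma's adjusted p of 0.05 in crypts, where 0.0489% of 12274 genes did. At an unadjusted p under 0.05, 1 member (Fzd5) was lower and 0 were higher, against 7.32% and 6.43% of all genes. On every array 2 members (Fzd6, by 3 arrays, and Fzd7) were below 0 and 0 were above, against 19.2% and 17.4% of all genes. In deleted organoids 0 of 8 passed the adjusted threshold without the block, where 0.0362% of 13804 genes did. Wnt3 was lower and Lrp6, counted by probe 1, higher at an unadjusted p under 0.05, against 4.31% lower and 3.4% higher over all genes. Lrp6 probe 2, the brighter in wt cultures, went the other way (-0.41, groups not overlapping). By the probes counted, Wnt3 and Lrp6 were the members whose cultures did not overlap. Of all genes 20% had both deleted cultures below and 19.7% above both wt cultures. With slide as a block, 2 of 7 members with all 4 spots usable passed, Wnt3 and Lrp6, where 3.14% of 12492 genes did. Lrp6 passed by probe 1 only, and probe 2 had a limma adjusted p of 0.251 in the blocked fit over probes. Without R-spondin 2 of 9 members (Wnt3 and Fzd7) were below -1, where 6.47% of 17160 genes were, and 1 (Fzd5) was above 1, where 4.51% were. The median change of the members was -0.21 in crypts, -0.18 in deleted organoids and -0.46 without R-spondin, beside -0.02, 0.01 and 0.07 over all genes. These shares describe a list of few genes and carry no test.

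Beyond the members and the deleted genes Lgr4 and Lgr5, the pathway lists held 75 gene names on the array, older names of a listed gene included. In crypts 35 were measured, of which 0 passed the adjusted threshold. At an unadjusted p under 0.05, 7 were lower and 1 was higher, beside 7.32% and 6.43% of all genes. In deleted organoids 39 were measured, again with 0 past the adjusted threshold, and 7 were lower and 1 was higher unadjusted, beside 4.31% and 3.4% of all genes. With slide as a block 6 of 36 passed, all lower, where 3.14% of all genes passed. Without R-spondin 9 of 48 were below -1 and 0 above 1, beside 6.47% and 4.51% of all genes.

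Leaving out Lgr4 and Lgr5, Tspan12 was among the 4 largest differences of each comparison, taken over genes whose crypt replicates shared a sign, whose cultures did not overlap or which passed 1 without R-spondin. It encodes a membrane partner of Fzd4 in Norrin signalling. It was lower by -1.34 in crypts (replicates -1.27 and -1.41, limma adjusted p 0.127), by -1.16 in deleted organoids (signals 6712 and 6060.5 in wt, 2617 and 3130.02 in deleted; adjusted p 0.267, or 0.0193 with slide as a block) and by -2.28 without R-spondin. Axin2, a scaffold of the β-catenin destruction complex and a Wnt target, was lower by -0.69 in crypts. It was at least 6.99-fold lower in deleted organoids and at least 8.67-fold lower without R-spondin, where it was not well above background. Rnf43, the ligase that removes Frizzleds, was lower by -2.10 in deleted organoids (limma adjusted p 0.106, or 0.00279 with slide as a block) and by -2.09 without R-spondin, and gave -0.43 and 0.46 in the crypt replicates. Its relative Znrf3 was lower by -0.72 in crypts (limma adjusted p 0.294) and by -1.12 in deleted organoids (0.283, or 0.0223 with the block).

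The receptor Fzd9 had signals of 172 and 469 in wt organoids and was not well above background in deleted ones, at least 3.18-fold lower (limma adjusted p 0.454), or 1.93-fold from wt culture 1 alone and 5.26-fold from culture 2. It was at least 6.37-fold lower without R-spondin. In crypts its replicates gave -0.63 and 0.44. The kinase Csnk1e was lower by -1.01 in crypts (limma adjusted p 0.247), -0.71 in deleted organoids and -1.23 without R-spondin. Porcn, the enzyme that attaches the lipid to Wnt proteins, was lower by -0.73 in crypts (limma adjusted p 0.282) and gave -0.06 in deleted organoids. Wls, the carrier that takes Wnt proteins to the surface, was picked after its values were seen. It gave -0.67 in crypts (limma adjusted p 0.319), -0.95 in deleted organoids (signals 1109 and 1571 in wt, 611 and 765 in deleted; adjusted p 0.458, or 0.0319 with the block) and -1.30 without R-spondin. Of the other Wnt ligands, 8 of 16 were measured in the withdrawal arrays, and 0 of these were past 1 in either direction. Their Cy5 signals were low, the highest being Wnt10a at 512 without and 485 with R-spondin. Wnt2 without R-spondin and Wnt9a with it were not well above background. These values therefore do not show the ligands to be unchanged.

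**Figure D4:**
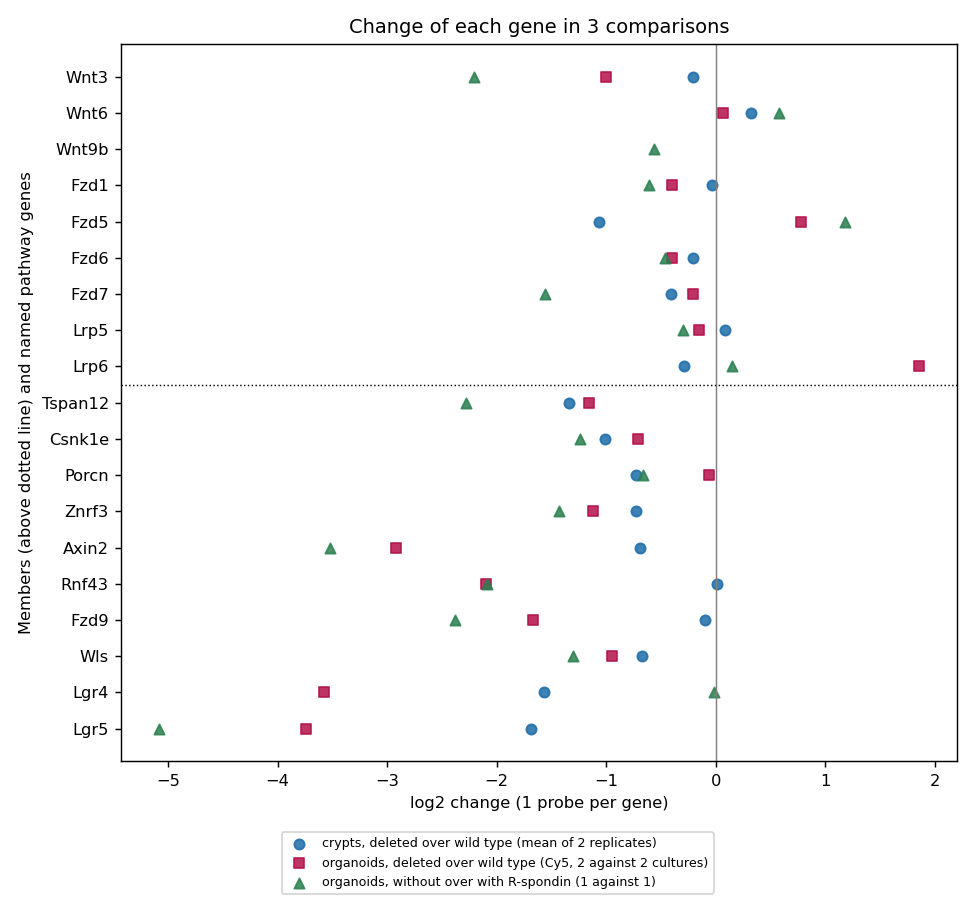
Log2 change of each member (above the dotted line) and of the named pathway genes, with 1 probe per gene, in deleted crypts, deleted organoids and organoids without R-spondin. Wnt3 lies at -0.996 and -2.21 in the organoid comparisons and Lrp6 at 1.86 in deleted organoids (probe 1 there, probe 2 in the other comparisons), whereas Lgr5, Axin2 and Fzd9 were not well above background after either organoid perturbation, so their organoid symbols are fitted values.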

How the data were processed

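The deposited scanner files give the authors' spot and background values as intensity for each channel, per the file headers from Agilent Feature Extraction 10.5.1.1 (8.5.1.1 per the submitters' processing notes), and the deposited series matrix gives log10 ratios. These ratios matched the scanner files' own, with the sign turned for the 2 crypt arrays carrying deleted RNA in Cy3. Intensities were background-corrected in limma 3.58.1 (R 4.3.3) by normexp with an offset of 50. Marked outlier spots and control spots were left out. Crypt and R-spondin arrays were normalised by loess within arrays, and Cy5 of the organoid deletion arrays by quantile. Those 4 arrays hold median pixel signals, the others mean signals. Where 1 array of a dye swap was marked, the other gave the replicate's value. Each gene took its brightest probe over all arrays of a comparison, which for Lrp6 was probe 1 in organoid deletion and probe 2 elsewhere. Deleted cultures counted in this choice, and in wt cultures alone Lrp6 probe 2 was the brighter (234 and 217 against 157 and 130.01). A probe was tested where 1 group or more had it well above background on all its arrays. Second probes took p-values from a fit over all probes.

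Changes were tested with limma's moderated statistic, two-sided, adjusted by Benjamini-Hochberg over all genes. The crypt minus organoid effect set the crypt replicate ratios against the within-slide Cy5 differences of the organoids. Withdrawal had no test and a threshold of 1 log2 unit. Fits were tested on simulated data. A fold written "at least" sets the bright group's mean against the higher of the dimmest well-measured signal and the probe's own. Summed marker signals use 1 probe per gene, and crypt channel signals were put on one scale by quantile normalisation of array averages. The members, gene lists and tests were chosen with earlier results of these data known. From the gene lists, the genes named were those past the adjusted threshold and up to 4 of the largest differences per comparison, with replicates of one sign or cultures that did not overlap. The number of arrays limits the precision. Slide and replicate cannot be told apart in crypts. Alternatives were other signals, scalings, filters, probes, the slide block and leaving out each replicate.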

Additional observations from a re-analysis of the deposited data

Results flagged for a closer look

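By the brighter of its probes, probe 2, the Fzd5 effect had opposite signs in the tissues. Both crypt replicates were below 0 (-0.16 and -1.97) and both within-slide organoid differences were above 0 (0.33 and 1.23), a crypt minus organoid effect of -1.84 that did not pass (limma, SE 0.55, adjusted p 0.299). The dye-swapped arrays behind the -0.16 gave -0.70 and 0.38. Probe 1 did not share the pattern, with 0.19 and 0.08 in the crypt replicates and 0.30 in organoids. Crypts and organoids also differed in Cre line (AhCre and VillinCre) and in measure (array ratios and Cy5 differences). Lgr4 was lower by -1.56 in crypts and by -3.57 in organoids. Tissue cannot be told apart from these differences.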

How the results depend on the processing

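The labels number no organoid cultures, so slide, which held 1 wt and 1 deleted culture, was the only pairing tried, as a block. By limma, 6 genes passed the adjusted threshold in crypts, and 784 with processed signals, 338 with median centring, 473 in the series matrix, 41 with marked spots kept, 39 over every probe, 0 without the filter (unadjusted p under 0.05 for 1342 below and 1400 above 0), and 3 to 590 with a replicate left out. In deleted organoids 5 passed, and 93 with processed Cy5, 27 with scaling to the 75th percentile, 10 in the series matrix, 1 with marked spots kept, 0 by ratio to the reference (269 and 284 unadjusted), 0 without the filter (997 and 833), 392 with the slide block, 724 with the block over every probe, and 0 to 4 with a culture left out (0 without wt culture 1, with 408 and 479 unadjusted, and 0 without deleted culture 1, with 233 and 201). Genes past 1 without R-spondin numbered 1884, and 2920 with processed signals and 2829 in the series matrix. Crypt and organoid effects differed for 55 genes, and for 101 with processed signals, 17 with marked spots kept, 0 by organoid ratio (515 and 369 unadjusted), 0 without the filter (935 and 1121), 662 without crypt replicate 1 and 1 without either organoid slide. Where 1 sample of a group was left, that group gave no spread, and the spread came from groups with 2 samples left. Without a crypt replicate it came from the organoid arrays alone. Counts from such fits do not reflect the replicate spread of the reduced group. Signs turned for the values that follow, which passed no test. Wnt3 in organoids and Lrp6 probe 1 did pass in some fits. Fzd1 in crypts was 0.073 with median centring and 0.10 with marked spots kept, and ran from -0.44 to 0.37 with a replicate left out, as Wnt3 ran from -0.47 to 0.051. By ratio to the reference the organoid change was -0.055 for Wnt6, 0.23 for Fzd1 and 0.051 for Fzd6, and the crypt minus organoid effect was -0.46 for Lrp6 probe 2, -0.26 for Fzd1 and -0.25 for Fzd6. Lrp5 in organoids was 0.17 in the series matrix. With a culture left out, organoid changes ran from -0.071 to 0.21 for Wnt6, -0.84 to 0.033 for Fzd1, -0.42 to 0.0078 for Fzd7 and -0.72 to 0.42 for Lrp5, and the crypt minus organoid effect of Fzd1 from -0.13 to 0.87. The causes of these differences were not tested. Wnt3 in organoids kept its sign under 13 of 13 alternatives, from -1.30 to -0.23, and Lrp6 probe 1 under 13 of 13, from 0.56 to 2.02. Among these, the slide block, every probe and no filter leave a probe's value as it was, so they could not turn its sign. Without R-spondin each member kept its sign under 6 of 6 alternatives, though there too every probe and no filter could not change a value. Fzd5 was at 0.98 there in the series matrix, under the threshold, and Wnt9b passed it at -1.12 in the series matrix and -1.06 with processed signals. The block over every probe, the alternatives for organoid against reference RNA and those for the crypt minus organoid effect were chosen after seeing the data. With 2 samples a group, and 1 for withdrawal, the number of arrays limits what could be told from replicate spread.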
